A study of Mus musculus with 15 samples.

Results

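Mmp12 and Ctsd are a pair of protease genes whose probes gave some of the highest counts in mouse bone marrow-derived macrophages (BMDMs), and they were taken from a panel of 754 genes by name. The panel was the NanoString nCounter Myeloid Innate Immunity set, in which each bound, colour-coded probe is counted as 1 molecule without amplification. Over 14 libraries Ctsd had the highest mean count of the panel, at 95461, and Mmp12 ranked second, at 85818. The genes just behind them were S100a4, at 52137, and Ctss, at 51318. The members were chosen by their counts and shares in these libraries, so levels and ranks are given here as a description with no test.

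The question behind the design was whether macrophages held in an M2-like state move toward an M1-like state after nanoparticles (NPs) deliver IRF5 mRNA. All cells were bone marrow progenitors grown for 7 days with 20 ng/mL macrophage colony-stimulating factor. The mouse strain and age are not given in the labels. The MPLA group (4 libraries), the M1-like standard, was cultured with 20 ng/mL monophosphoryl lipid A for 4 days. The IL4 group (4 libraries), the M2-like standard, was cultured with 20 ng/mL interleukin-4 for 4 days. The IRF5-NP group (3 libraries, numbered 1, 2 and 4) held cells kept in interleukin-4 and exposed for 1 h to particles labelled as 1 µg of IRF5-NPs, and the eGFP-NP group (4 libraries) held cells treated in the same way with particles carrying the mRNA of enhanced green fluorescent protein (eGFP). According to the methods of the study, the IRF5 particles held mRNA of the kinase IKKβ and eGFP mRNA as a reporter besides. Strongly transfected cells were sorted by their fluorescence. They were then cultured further in a lower dose of interleukin-4 before RNA was isolated. The methods and the labels state different amounts of particles, and the amount above is that of the labels. No such sort or further low-dose culture is described for the MPLA and IL4 groups. Particle exposure, sorting and this further culture therefore cannot be told apart in a comparison of an NP group with either standard.

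Mmp12 encodes macrophage metalloelastase, a zinc-dependent metalloproteinase that macrophages secrete and that degrades elastin and other parts of the extracellular matrix. Ctsd encodes cathepsin D, an aspartic protease that is delivered to the lysosome, where it breaks down proteins at acid pH. One enzyme thus works mainly outside the cell and the other mainly inside it, and macrophages are a well-known source of both.

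In the mouse genome build GRCm38.p6, Mmp12 lies on chromosome 9 from 7344397 to 7360461 and Ctsd on chromosome 7 from 142375910 to 142387827. RefSeq lists 2 transcription starts for Mmp12 and 1 for Ctsd. The 250 bases before each start are printed here because they let the regulatory sequence of both genes be seen beside their counts. The Mmp12 windows lie at chr9:7344147-7344396 (start 1) and chr9:7347124-7347373 (start 2), both on the plus strand, and the second lies inside the gene. The Ctsd window lies at chr7:142387828-142388077 and is shown on the minus strand, from which the gene is read. Capitals mark matches to the motifs searched, on either strand.
Mmp12 start 1: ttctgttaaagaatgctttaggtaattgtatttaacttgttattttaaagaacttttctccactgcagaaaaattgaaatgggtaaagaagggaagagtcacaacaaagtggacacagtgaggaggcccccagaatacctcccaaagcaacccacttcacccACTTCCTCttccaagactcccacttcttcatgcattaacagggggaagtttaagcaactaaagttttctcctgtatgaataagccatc
Mmp12 start 2: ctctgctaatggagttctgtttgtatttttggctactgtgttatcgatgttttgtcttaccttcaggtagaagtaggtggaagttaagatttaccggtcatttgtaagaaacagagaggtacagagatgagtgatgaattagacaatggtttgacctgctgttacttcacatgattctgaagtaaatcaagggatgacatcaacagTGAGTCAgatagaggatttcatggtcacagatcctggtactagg
Ctsd: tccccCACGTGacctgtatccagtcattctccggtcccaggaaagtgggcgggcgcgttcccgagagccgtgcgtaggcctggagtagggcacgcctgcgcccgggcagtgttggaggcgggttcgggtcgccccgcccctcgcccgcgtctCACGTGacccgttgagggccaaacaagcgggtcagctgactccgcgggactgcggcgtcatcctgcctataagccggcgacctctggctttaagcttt

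The Ctsd window held the E-box CACGTG at 2 places, from 245 to 240 and from 98 to 93 bases before the start. This palindrome was present in 6.02% of 32851 RefSeq promoter windows of the same length. The first Mmp12 window held 1 match to GAGGAAGT, a PU.1-type ETS motif found in 2.44% of windows, on the opposite strand and 88 to 81 bases before the start. The second Mmp12 window held 1 match to the AP-1 motif TGANTCA, found in 6.75% of windows, 44 to 38 bases before the start. The STAT6-type motif, TTC and GAA with 4 bases between them, found in 5.85% of windows, had no match in the 3 windows. These matches are descriptions of letters, and no binding was measured here.

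The total count over all genes ran from 266169 in IRF5-NP 4 to 1784833 in MPLA 1, and the background level, set as the mean plus 2 SD of the 8 negative control probes, from 19.7 to 34.9 counts. Libraries eGFP-NP 1 and eGFP-NP 2 did not differ beyond the sampling noise (chi-square per degree of freedom 1.09, p = 0.0817) and were counted as 1 sample, called eGFP-NP 1-2, which left 14 samples. Some further pairs were nearly as alike (MPLA 1 with 4, MPLA 2 with 3, IRF5-NP 1 with 2, eGFP-NP 3 with 4), with values of 1.36 to 2.56 against 41.4 to 1250 for the other pairs within a group. The labels do not say that replicates came from separate cultures. The study's figure legend on these cultures calls its samples biologically independent, but gives more of them than any group holds here. The p-values therefore measure only the spread between these samples, which may be technical.

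The labelled cell type was checked against its defining markers. Of the 15 macrophage markers listed, 12 were in the panel, and 10 or 11 of them were above background in every library, Aif1 being the one that never was. Their summed share of the counts was 4.96% to 5.26% in the MPLA group and 4.51% to 5.47% in the IL4 group, and it ranged from 3.91% to 7.74% among IRF5-NP libraries and from 3.13% to 7.36% among eGFP-NP libraries. Fibroblast markers, of which 7 of 18 were in the panel, varied far more. They took 8.77% to 10.4% of the counts in the MPLA group and 0.0207% to 5.59% in the IL4 group, against 0.00868% to 4.04% among IRF5-NP libraries and 0.00826% to 5.02% among eGFP-NP libraries. In 8 of the 14 libraries, namely all of MPLA, IL4 2, IRF5-NP 4, eGFP-NP 3 and eGFP-NP 4, they outweighed the macrophage markers. In IL4 3, IRF5-NP 1, IRF5-NP 2 and eGFP-NP 1-2, only 1 of the 7 fibroblast markers was above background. The 10 neutrophil markers measured, of 13 listed, summed to at most 0.117% of any library. Of the lymphocyte list only Ms4a1, 1 of 12 genes, was measured, and it did not exceed 32 counts.

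Mmp12 varied more between libraries than between groups. The MPLA libraries gave 38821, 42156, 45852 and 38440 Mmp12 counts, or 2.18%, 2.60%, 2.70% and 2.26% of their gene counts, a mean of 2.43% ± 0.254 (SD, n = 4). These were the most even values of any group, and Mmp12 ranked 5 to 7 among the genes of each of these libraries. The IL4 libraries gave 41533, 148, 106945 and 64903 counts, or 3.82%, 0.00996%, 6.85% and 3.96%, a mean of 3.66% ± 2.80 (SD, n = 4). In IL4 1, 3 and 4 Mmp12 held rank 4, 3 and 3, all above every MPLA library in share, whereas in IL4 2 it fell to rank 426.

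In the NP groups Mmp12 reached its highest levels and again split by library. The IRF5-NP libraries 1, 2 and 4 gave 165921, 153463 and 4736 Mmp12 counts, or 11.0%, 10.8% and 1.78% of the library, a mean of 7.86% ± 5.27 (SD, n = 3). The eGFP-NP libraries 1, 2, 3 and 4 gave 214608, 219814, 33982 and 30132 counts, or 14.5%, 14.4%, 4.08% and 4.08%, a mean of 7.54% ± 6.0 (SD, n = 3) with 1 and 2 taken as 1 sample. Mmp12 had the highest count of the panel in eGFP-NP 1-2, at rank 1, while IRF5-NP 4 lay below every MPLA library in share. From the lowest to the highest deposited library the share of Mmp12 spanned 1457-fold, or 8.15-fold without IL4 2.

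Ctsd covered a much narrower range. In the MPLA libraries it gave 88063, 92900, 95229 and 83367 counts, or 4.93%, 5.74%, 5.60% and 4.91%, a mean of 5.30% ± 0.436 (SD, n = 4). In the IL4 libraries it gave 59453, 21892, 63962 and 99077 counts, or 5.47%, 1.47%, 4.09% and 6.04%, a mean of 4.27% ± 2.04 (SD, n = 4). IL4 2 was again the lowest library, at rank 15 for Ctsd, and the other IL4 libraries overlapped the MPLA values.

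The IRF5-NP libraries gave 168750, 160288 and 11588 Ctsd counts, or 11.2%, 11.3% and 4.35%, a mean of 8.94% ± 3.98 (SD, n = 3). The eGFP-NP libraries gave 157782, 162288, 37933 and 33875 counts, and with 1 and 2 as 1 sample the shares were 10.7%, 4.55% and 4.59%, a mean of 6.60% ± 3.51 (SD, n = 3). Ctsd was the first or second gene by count in every library except IL4 2 and IL4 3, and its share spanned 7.67-fold over the libraries, or 2.76-fold without IL4 2. Counting error was small beside these differences, since the 95% Wilson interval of a share was at most ± 0.0568 percentage points wide for Mmp12 and ± 0.0775 for Ctsd (counting error only).

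**Figure D1:**
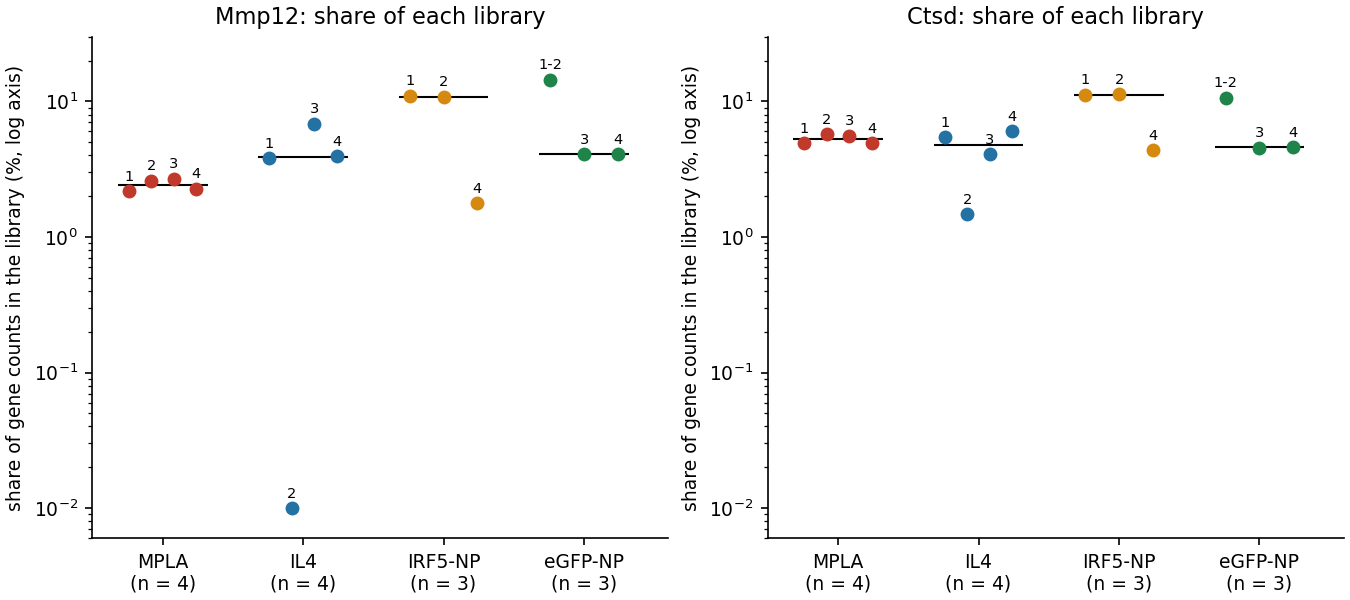
Share of all gene counts taken by Mmp12 (left) and Ctsd (right) in each library, on a log axis in percent. Points are single libraries labelled by replicate number (eGFP-NP 1 and 2 as 1 sample), and bars mark group medians. IL4 2 sits at 0.00996% for Mmp12 and at 1.47% for Ctsd, below all other libraries in both panels.

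By group means the order for Mmp12 was MPLA, IL4, eGFP-NP and IRF5-NP, and for Ctsd IL4, MPLA, eGFP-NP and IRF5-NP, from low to high. Each pair of neighbours in these orders lay closer together than the larger of their SDs, so the order is not fixed by these libraries. Both genes together took 1.48% of the counts in IL4 2 and 25.1% in eGFP-NP 1-2. Their mean joint share was 7.73% in MPLA, 7.93% in IL4, 16.8% in IRF5-NP and 14.1% in eGFP-NP. Counts come from lysates of many cells, so fewer expressing cells and less RNA per cell cannot be told apart.

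IL4 2 stood apart from its group in more than these proteases. Whether this library is labelled correctly is not settled here, and it was kept as labelled. On the log2 CPM scale (CPM, counts scaled by library size) Mmp12 in IL4 2 differed by -8.41 from the nearest IL4 library, the largest gap downward among 484 genes with a mean count of at least 100. Its count of 148 was still above that library's background. The largest gap upward belonged to Cxcl9, an interferon-induced chemokine, with counts of 27, 24006, 36 and 26 in IL4 1 to 4, and Cxcl10, another such chemokine, gave 24, 2736, 33 and 152. Cxcl9 and Cxcl10 were picked after their values were seen, and their part in the Mmp12 value was not tested.

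MPLA and IL4 compared the M1-like with the M2-like standard. Mmp12 was lower in MPLA than in 3 of the 4 IL4 libraries, and Ctsd overlapped, but neither gene passed the test over all 8 libraries, in which 26.4% of all genes were called. The fitted log2 difference, MPLA minus IL4, was -0.96 ± 1.20 (SE) for Mmp12 (edgeR quasi-likelihood test with Benjamini-Hochberg adjustment over all genes, adjusted p = 0.582) and 0.05 ± 0.43 for Ctsd (adjusted p = 0.943). The call for Mmp12 turned on IL4 2. Without that library the difference was -1.38 ± 0.35 with an edgeR adjusted p of 0.0193, where 39.1% of genes were called, while Ctsd stayed at -0.24 with an adjusted p of 0.283. On the mean of log2 values, which 1 very low library pulls further down, MPLA was the higher group for Mmp12, with a mean log2 CPM of 14.44 against 13.46 in IL4 and a limma difference of 1.00. The direction of the Mmp12 difference over all libraries is therefore not settled, and fibroblast marker shares, which were 8.77% to 10.4% in MPLA and at most 5.59% in IL4, moved with it. Their part in the result was not tested.

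Neither NP group differed from the IL4 group by the edgeR test. Mmp12 was 1.03 ± 1.55 (log2, SE) higher in IRF5-NP than in IL4 (adjusted p = 0.893) and Ctsd 1.04 ± 0.77 higher (adjusted p = 0.846), in a comparison where 0% of genes were called. On the mean of log2 values the Mmp12 difference was larger, at 2.30 with limma and 2.42 with the methods' t-test. In eGFP-NP against IL4 the differences were 0.84 ± 1.50 for Mmp12 (edgeR adjusted p = 0.910) and 0.48 ± 0.72 for Ctsd (adjusted p = 0.869), again with 0% of genes called, and Mmp12 differed by 2.30 with limma and 2.11 with the methods' t-test. None of these was called. At an unadjusted p under 0.05, 53 genes passed in the first of these comparisons and 84 in the second, and neither protease was among them. DESeq2 called 19 and 56 genes, and limma 0 in both. The errors are wide enough that several-fold changes of Mmp12 in either direction would not have been detectable.

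IRF5-NP against eGFP-NP compared the IRF5 cargo with a control cargo. Over all libraries the log2 differences were 0.14 ± 1.15 for Mmp12 (edgeR adjusted p = 0.955) and 0.52 ± 0.88 for Ctsd (adjusted p = 0.874). No gene of the panel was called (0%), 42 passed at an unadjusted p under 0.05, and DESeq2 called 6 and limma 0. Libraries of the same number in these groups deviated together, and within a number the picture for Mmp12 was different. With eGFP-NP 1 and 2 taken separately, its share in IRF5-NP was 0.757, 0.751 and 0.436 times that in eGFP-NP for numbers 1, 2 and 4, lower in 3 of 3 pairs. The share of Ctsd was 1.05, 1.06 and 0.949 times that in eGFP-NP. With the replicate number as a block, eGFP-NP 1 and 2 entered as separate libraries, and eGFP-NP 3, which has no partner, was left out. The log2 difference then became -0.92 ± 0.44 for Mmp12 (edgeR unadjusted p = 0.0841, adjusted p = 0.440) and -0.23 ± 0.35 for Ctsd (adjusted p = 0.762). The fitted direction turned for both genes and neither was called. Without a block, Mmp12 already turned with eGFP-NP 1 and 2 separate (-0.19) or without eGFP-NP 3 (-0.21). Ctsd stayed at 0.24 and 0.22 in these fits. Numbers 1 and 2 were nearly the same library within each group, so the pairs hold less than 3 independent observations.

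By edgeR, the differences of Mmp12 were largest between the NP groups and MPLA, whereas by limma and the methods' t-test those between the NP groups and IL4 were larger. In IRF5-NP against MPLA, Mmp12 was 2.17 ± 0.74 higher on the log2 scale (edgeR adjusted p = 0.0699, unadjusted p = 0.0234) and Ctsd 1.17 ± 0.54 higher (adjusted p = 0.138). Neither passed the threshold, in a comparison where 24.4% of genes did. IRF5-NP 4, which also had the lowest total count, lay below all MPLA libraries for both genes in share, and the part of its depth was not tested. Without it the differences were 2.69 ± 0.09 for Mmp12 (edgeR adjusted p = 8.53e-09) and 1.61 ± 0.08 for Ctsd (adjusted p = 1.48e-07), where 75.1% of all genes were called and the NP side held only the nearly identical libraries 1 and 2. DESeq2 called Mmp12 over all libraries (2.24, adjusted p = 0.00704), as it did 51.6% of the genes it tested. With nearly identical pairs merged, the differences were 1.78 ± 1.38 for Mmp12 (edgeR adjusted p = 0.588) and 0.86 ± 1.09 for Ctsd (adjusted p = 0.730). In that fit 0 of 754 genes were called.

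In eGFP-NP against MPLA, Mmp12 was 1.92 ± 0.66 higher (edgeR adjusted p = 0.0834, unadjusted p = 0.0231), and all 3 eGFP-NP values lay above all 4 MPLA values, as did those of 16.6% of genes. Ctsd was 0.54 ± 0.52 higher (adjusted p = 0.499), with overlapping groups. In this comparison 19.6% of genes were called. With eGFP-NP 1 and 2 as separate samples Mmp12 passed (2.28, edgeR adjusted p = 0.0408, 25.1% of genes called). That fit counts a pair alike within sampling noise as 2 samples. With nearly identical pairs merged, Mmp12 was 2.27 ± 1.13 higher and not called (edgeR adjusted p = 0.395, 0 of 754 genes called). Without eGFP-NP 1-2 the members parted. Mmp12 stayed higher, by 0.64 ± 0.10 (edgeR adjusted p = 0.000270), whereas Ctsd was lower than in MPLA, at -0.32 ± 0.10 (adjusted p = 0.0230), with 56.8% of genes called and the nearly identical libraries 3 and 4 alone on the NP side. Fibroblast marker shares were at most 5.02% in the NP libraries and at least 8.77% in the MPLA libraries, and their part in these differences was not tested. The NP comparisons with MPLA share the MPLA libraries and are not independent of each other, and the comparisons with IL4 share the IL4 libraries.

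**Figure D2:**
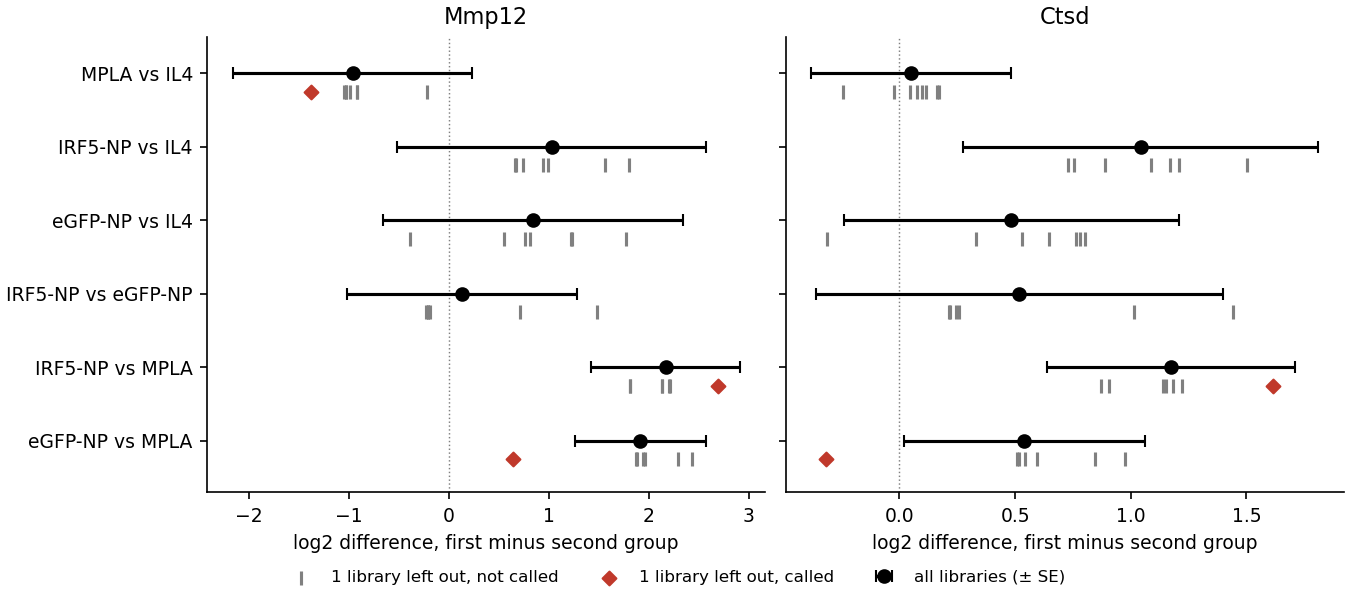
Log2 difference of Mmp12 (left) and Ctsd (right) in the 6 comparisons, first minus second group, by edgeR. Black points with bars are the fit over all libraries ± SE, grey ticks are fits with 1 library left out that were not called, and red diamonds are those that were called at an adjusted p under 0.05. No fit over all libraries was called, and the 5 called values arose only when IL4 2, IRF5-NP 4 or eGFP-NP 1-2 was left out.

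The ratio of Mmp12 to Ctsd counts within a library needs no scaling between libraries. Probes can differ in efficiency, so the ratio is compared between libraries and does not state which RNA had more molecules. The log2 ratio was -1.18, -1.14, -1.05 and -1.12 in the MPLA libraries, a mean of -1.12 ± 0.05 (SD, n = 4). It was -0.52, -7.21, 0.74 and -0.61 in the IL4 libraries, a mean of -1.90 ± 3.59 (SD, n = 4). MPLA libraries thus held a nearly constant proportion of the 2 transcripts, while IL4 libraries spread widely and, apart from IL4 2, lay above all MPLA libraries.

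The log2 ratio was -0.02, -0.06 and -1.29 in IRF5-NP, a mean of -0.46 ± 0.72 (SD, n = 3), and 0.44, -0.16 and -0.17 in eGFP-NP, a mean of 0.04 ± 0.35 (SD, n = 3). The eGFP-NP libraries all lay above the MPLA libraries, by 1.16 in the mean (two-sided exact permutation test, p = 0.0571, the smallest p that 3 against 4 allows, 0.343 after Benjamini-Hochberg adjustment over 6 comparisons). The other 5 comparisons overlapped, with differences of 0.78 for MPLA minus IL4 (exact permutation p = 1), 1.44 for IRF5-NP minus IL4 (exact p = 0.857), 1.94 for eGFP-NP minus IL4 (exact p = 0.343), 0.66 for IRF5-NP minus MPLA (exact p = 0.286) and -0.50 for IRF5-NP minus eGFP-NP (exact p = 0.6). None passed after adjustment. Before adjustment only 4 against 4 libraries could have gone below 0.05, to 0.0286. With groups this small no adjusted value could have gone below 0.05, so this outcome was fixed in advance. Between IRF5-NP and eGFP-NP libraries of the same number the log2 ratio was lower by -0.47, -0.50 and -1.12 in IRF5-NP, in 3 of 3 pairs, a mean of -0.70 (exact sign-flip permutation test, p = 0.25, the smallest that 3 pairs allow). These pairs took eGFP-NP 1 and 2 as separate libraries. Numbers 1 and 2 were nearly the same library within each group, so the pairs hold less than 3 independent observations and this p is too small.

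**Figure D3:**
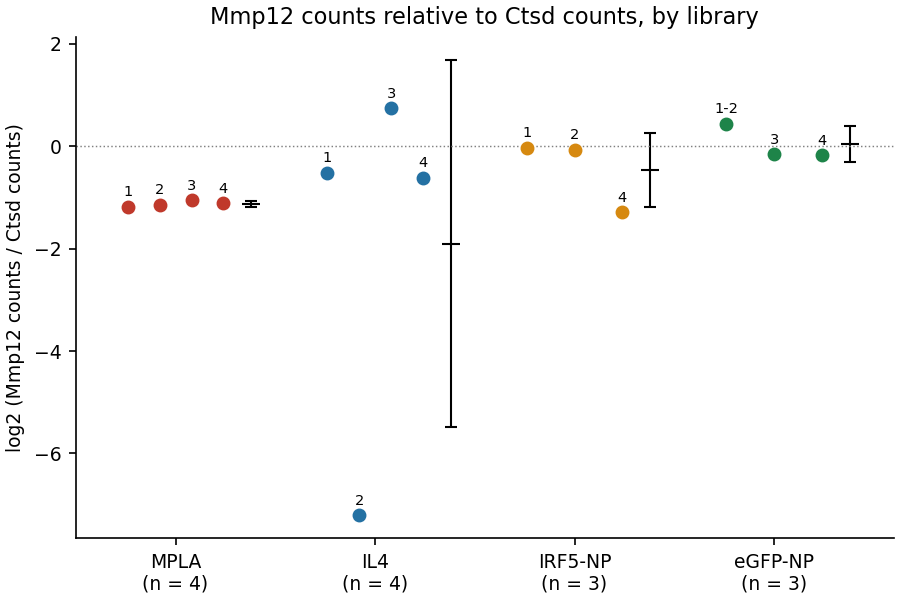
Log2 of Mmp12 counts over Ctsd counts in each library, by group. Points are libraries labelled by replicate number, and the bars to the right of each group show mean ± SD. The 4 MPLA libraries lie between -1.18 and -1.05, and IL4 2 lies at -7.21.

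Because the share of fibroblast markers differed between libraries, both genes were also set against the summed counts of the 12 macrophage markers. Mmp12 gave 0.417, 0.514, 0.544 and 0.431 counts per macrophage marker count in the MPLA libraries and 0.737, 0.00221, 1.25 and 0.784 in the IL4 libraries. It gave 1.42, 1.40 and 0.455 in IRF5-NP and 1.97, 1.29 and 1.30 in eGFP-NP. On this scale the eGFP-NP libraries drew together for Mmp12 relative to their shares, whereas IRF5-NP 4 fell among the MPLA values. With macrophage marker scaling in the fit, eGFP-NP against MPLA was called for Mmp12 (log2 difference 1.67 ± 0.25, edgeR adjusted p = 0.00630, 11.1% of genes called). In IRF5-NP against MPLA it lowered the differences to 1.19 for Mmp12 (edgeR adjusted p = 0.241) and 0.37 for Ctsd (adjusted p = 0.490), and 10 genes of the panel were called in place of 184. This scaling was chosen after the data had been seen.

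Ctsd per macrophage marker count was 0.946, 1.13, 1.13 and 0.934 in MPLA and 1.06, 0.326, 0.748 and 1.20 in IL4. It was 1.44, 1.46 and 1.11 in IRF5-NP and 1.45, 1.44 and 1.47 in eGFP-NP. The eGFP-NP libraries, whose Ctsd shares of the whole library ran from 4.55% to 10.7%, thus gave nearly one value per macrophage marker count, 1.45 ± 0.0120 (SD, n = 3, with 3 and 4 nearly identical). The marker sum includes Cd68 and Laptm5, which are also on the lysosome list used below, and their part was not tested. Ctsd was not called on this scale, at 0.49 ± 0.19 against MPLA (edgeR adjusted p = 0.181) and 0.80 ± 0.52 against IL4 (adjusted p = 0.518). In the same libraries the fibroblast marker share ran from 0.00826% to 5.02%. Its part in the spread of the shares was not tested.

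**Figure D4:**
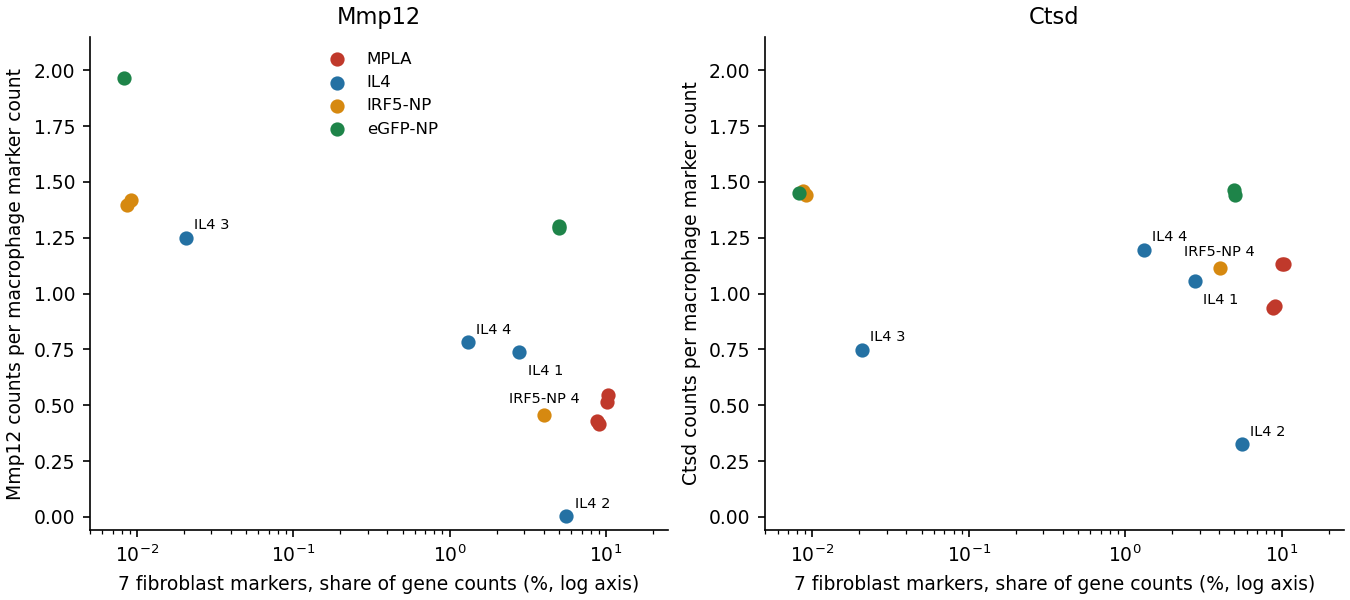
Counts of Mmp12 (left) and Ctsd (right) per macrophage marker count in each library, against the share of gene counts taken by 7 fibroblast markers (percent, log axis). Colours are groups, and the IL4 libraries and IRF5-NP 4 are labelled. For Ctsd the eGFP-NP libraries lie at 1.44 to 1.47 both at 0.00826% and at 5.02% fibroblast markers, and IL4 2 is lowest in both panels.

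The panel held 36 genes of proteases, their inhibitors and the lysosome from lists drawn up by function, the 2 members among them. These were 5 of 15 cathepsins, 7 of 23 matrix metalloproteinases, 12 of 29 other proteases, 5 of 29 protease inhibitors and 7 of 48 other lysosome genes. In MPLA against IL4, 6 of the 36 were called by edgeR, against 26.4% of all genes. Ctss, the lysosomal cysteine protease cathepsin S, was lower in MPLA (-2.09 ± 0.46, adjusted p = 0.0146). So were 3 lysosome genes, namely Man2b1, a lysosomal mannosidase (-1.25 ± 0.26, adjusted p = 0.0132), Laptm5, a lysosomal membrane protein (-1.10 ± 0.24, adjusted p = 0.0138), and Grn, the precursor of granulins (-0.84 ± 0.23, adjusted p = 0.0333). Mmp9, a gelatinase, was higher in MPLA (1.39 ± 0.35, adjusted p = 0.0237), and so was Adamts4, an aggrecan-degrading protease with a mean count under 100 (2.46 ± 0.19, adjusted p = 0.000138), which was named after its values were seen. With the nearly identical pairs merged, 1 of the 36 was called. Over the listed genes above background in at least 1 library, a limit set after the data had been seen, the median log2 difference was -0.39 for 4 cathepsins, 0.68 for 5 matrix metalloproteinases, -0.30 for 8 other proteases, 0.40 for 5 inhibitors and -1.01 for 6 lysosome genes, beside 0.05 for 652 genes of the panel. With the genes never above background included, the metalloproteinase median turned to -0.47, over 7 genes, beside -0.05 for all 754, and the other 4 lists kept their sign.

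None of the 36 was called by edgeR in IRF5-NP against IL4, eGFP-NP against IL4 or IRF5-NP against eGFP-NP, where no gene of the panel was. At an unadjusted p under 0.05, 3 of the 36 passed in each of these, beside 53, 84 and 42 of all 754 genes. DESeq2 called 1, 1 and 0 of the 36, beside 19, 56 and 6 of all genes it tested. Over the same detected genes the medians in IRF5-NP against IL4 were 0.42 for cathepsins, 0.17 for metalloproteinases, 0.031 for other proteases, -0.35 for inhibitors and 0.38 for lysosome genes, beside -0.23 for 652 genes. In eGFP-NP against IL4 they were -0.54, 0.36, 0.18, -0.23 and -0.25 in the same order, beside -0.12, and the metalloproteinase median turned to -0.16 over all 7 genes. In IRF5-NP against eGFP-NP they were 0.64, -0.22, -0.33, -0.45 and 0.56, beside 0.05, and the metalloproteinase median turned to 0.14. In IRF5-NP against MPLA they were 1.26, -0.73, 0.33, 0.84 and 1.39, beside -0.10. In eGFP-NP against MPLA they were 0.22, -0.61, 0.49, 0.41 and 0.79, beside -0.0046. Over all 754 genes the panel medians against MPLA turned to 0.07 and 0.06. In IRF5-NP against MPLA, 8 of the 36 were called, 6 higher and 2 lower, against 24.4% of all genes. The lower ones were Mmp19, a metalloproteinase of basement membranes (-0.73 ± 0.16, edgeR adjusted p = 0.0208), and Serpinb9, an inhibitor of granzyme B (-0.60 ± 0.15, adjusted p = 0.0316). Of the higher ones, Ctsl, the lysosomal cysteine protease cathepsin L, was above background in all 14 libraries (1.34 ± 0.37, adjusted p = 0.0417), and Tpsb2, a mast cell tryptase, in 10 (2.25 ± 0.57, adjusted p = 0.0327), both with overlapping groups. They were named after their values were seen. Ctsg, Cpa3, Gzma and Lamp3 were not above background in any library. In eGFP-NP against MPLA, 3 of the 36 were called, against 19.6% of all genes. Mmp9 (-2.11 ± 0.32, edgeR adjusted p = 0.00538) and Mmp19 (-0.61 ± 0.17, adjusted p = 0.0427) were lower, and Plau, the urokinase plasminogen activator, was higher (0.95 ± 0.21, adjusted p = 0.0252). With the nearly identical pairs merged, none of the 36 was called in either NP group against MPLA (0 of 754 genes by edgeR, with 79 and 113 at an unadjusted p under 0.05), and with total count scaling none was in IRF5-NP against MPLA (52 of 754). The fibroblast marker shares given above moved with these comparisons too, and their part in the calls was not tested.

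**Figure D5:**
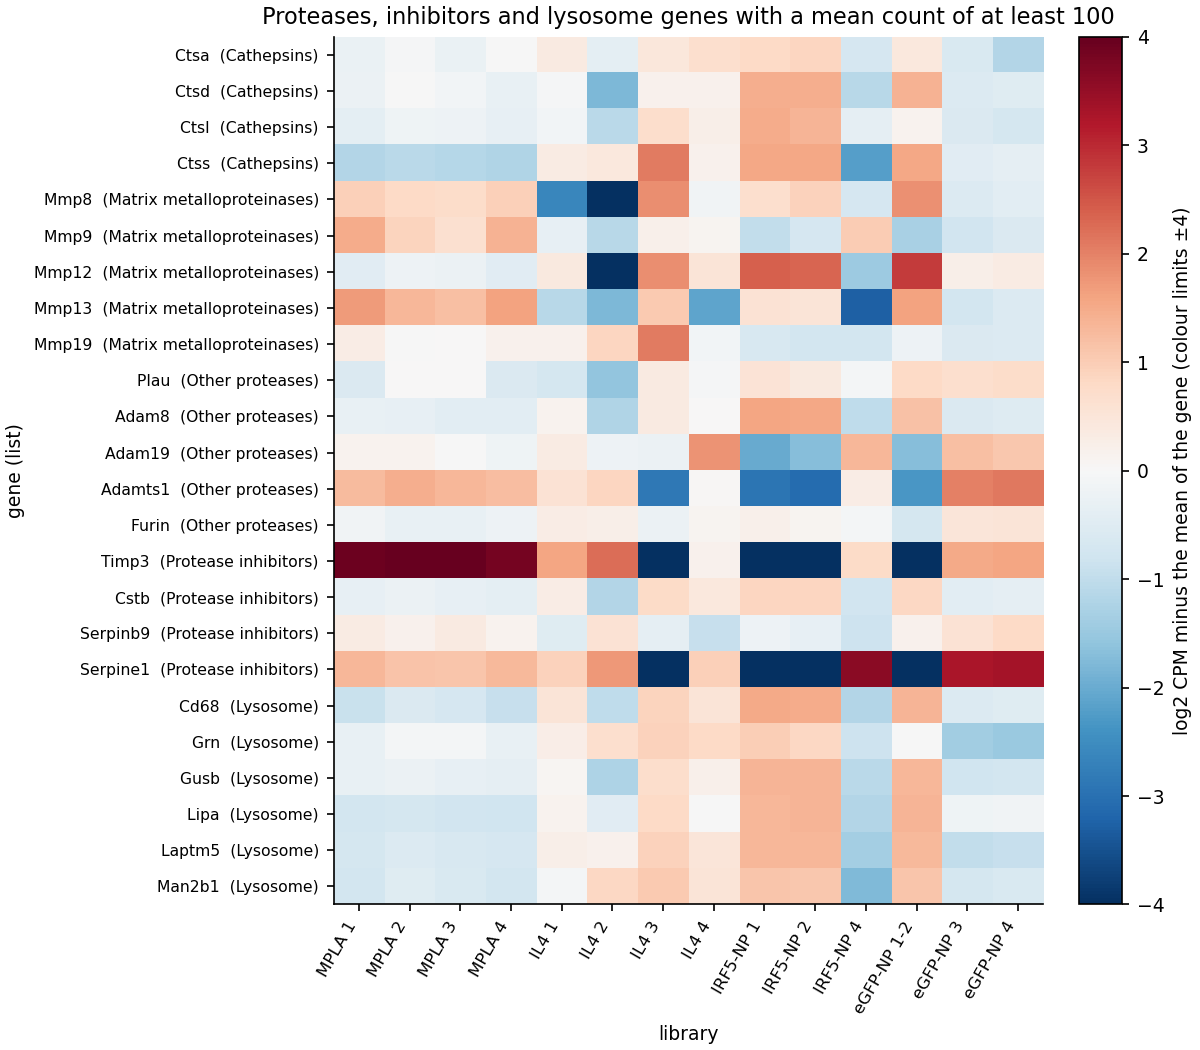
Log2 CPM of 24 protease, inhibitor and lysosome genes with a mean count of at least 100, each minus its own mean over the 14 libraries, with colours limited to ± 4. Rows are genes with their list, columns are libraries. Ctsd and most lysosome genes are above their means in IRF5-NP 1, IRF5-NP 2 and eGFP-NP 1-2. These genes are below their means in IRF5-NP 4, eGFP-NP 3, eGFP-NP 4 and the MPLA libraries.

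Over the 14 libraries the log2 CPM of Mmp12 and Ctsd correlated with each other at a Pearson r of 0.847, or 0.911 without IL4 2. These correlations share libraries, scaling and near-duplicate pairs and are descriptions. Among 484 genes, those most like Mmp12 were Anxa1, encoding annexin A1 (r = 0.926), Plaur, the receptor of urokinase (0.904), Alas1, an enzyme of haem synthesis (0.899), Malt1, a signalling protease of the NF-κB pathway (0.886), and Cd28 (0.881). Plaur owed its place to 1 library, since its r was 0.481 without IL4 2, while Anxa1 stayed at 0.964. The genes most like Ctsd were Adam8, a membrane metalloproteinase (0.968), Gusb, the lysosomal β-glucuronidase (0.961), Tspan7 (0.955), Igf1, a growth factor (0.941), and Malt1 (0.936). All 5 stayed at 0.907 or above without IL4 2. Gusb and Alas1 are also among the 20 housekeeping genes used in the alternative scaling.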

How the data were processed

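RNA was measured with a NanoString nCounter panel. The authors deposited one table of raw counts for 768 probes in 15 libraries, with no background subtraction or scaling, and the unit is counts per probe. The 754 gene probes were used, and the 6 positive and 8 negative control probes served only for background and scaling. The study's methods scaled to housekeeping genes and used t-tests on log2 values. Libraries that did not differ beyond sampling noise were summed (chi-square test on genes whose 2 counts summed to 40 or more), leaving 14 of 15. Pairs and blocks by replicate number kept them separate.

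Groups were compared by pairs with edgeR 4.0.16 in R 4.3.3 (TMM scaling, quasi-likelihood test, two-sided, no filter on low counts, Benjamini-Hochberg adjustment over 754 genes, threshold 0.05). The SE was taken as the absolute log2 difference over the root of its F statistic. Log2 CPM used a prior count of 2. Ratios were tested by exact permutation with scipy 1.17.1. Alternatives used other scalings, limma 3.58.1, DESeq2 1.42.0, the methods' t-test and libraries left out. The fit was checked on simulated data. Figures were drawn with matplotlib 3.10.9.

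Named genes were the members and, per comparison, up to 5 listed protease, inhibitor or lysosome genes with the largest difference among those called without overlap of groups and with a mean count of at least 100, plus the 5 genes most correlated with each member. Members and lists were chosen with earlier results of these data known. Same-numbered IRF5-NP and eGFP-NP libraries deviated from their group means together (r = 0.905, 0.900 and 0.907), so their numbers were taken to pair them, although the best match of IRF5-NP 2 was eGFP-NP 1 and that of IRF5-NP 4 was eGFP-NP 3. This was not so in the other comparisons.

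Total counts of 266169 to 1784833 per library make counting error small for both members. Shares carry Wilson 95% intervals. Gene symbols are those of the table, of which 744 equalled a RefSeq symbol. Promoter sequences are RefSeq's for GRCm38.p6.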

Additional observations from a re-analysis of the deposited data

Results flagged for a closer look

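In library IL4 2, 3 values lay far from the other IL4 libraries, by the ratio of the gap to the nearest library to the range of the group (Dixon's 95% limit for 4 samples). The log2 CPM of Mmp12 was 6.75 in IL4 2, and the nearest IL4 library was at 15.16 (ratio 0.851). The log2 CPM of Ctsd was 13.94 in IL4 2, and the nearest was at 15.68 (ratio 0.889). The log2 ratio of Mmp12 to Ctsd was -7.21 in IL4 2, and the nearest was at -0.61 (ratio 0.830, just past the limit). The 3 values come from 1 library and are not independent of each other. By chance about 1 in 20 groups passes this limit, and 14 group values were tested.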

How the results depend on the processing

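Of the 6 comparisons, none was called for Mmp12 or Ctsd over all libraries by edgeR. IRF5-NP against IL4 kept its direction and stayed uncalled for both genes in all 20 alternatives. Its Mmp12 value ran from 0.65 (macrophage marker scaling) to 2.42 (the methods' t-test) over these. New calls arose for Mmp12 in IRF5-NP against MPLA with DESeq2 (2.24) and in eGFP-NP against MPLA with macrophage marker scaling (1.67) or with eGFP-NP 1 and 2 separate (2.28), besides those from libraries left out. DESeq2 gave Mmp12 no p-value in eGFP-NP against MPLA. With nearly identical pairs merged, neither gene was called in any comparison. Uncalled log2 differences turned sign as follows. In MPLA against IL4, Ctsd became -0.12 with housekeeping scaling, -0.013 with positive control scaling, -0.020 with DESeq2, -0.017 with the methods' t-test, -0.15 with a mean count of at least 40 and -0.041 with negative controls subtracted, and Mmp12 became 1.00 with limma and 0.76 with the methods' t-test. With positive control scaling Ctsd became -0.35 in eGFP-NP against IL4 and -0.34 in eGFP-NP against MPLA. In IRF5-NP against eGFP-NP, Mmp12 became -0.48 with macrophage marker scaling, -0.19 with eGFP-NP 1 and 2 separate, -0.55 with nearly identical pairs merged and -0.92 with the replicate block, and Ctsd became -0.12 with that scaling, -0.025 with pairs merged and -0.23 with the block. The block, which took eGFP-NP 1 and 2 as separate and kept only numbers present in both groups, changed no call of either gene in any comparison. The cause of these turns was not tested. Scaling also moved values without turning them. With macrophage marker scaling IRF5-NP against MPLA fell to 1.19 for Mmp12 and 0.37 for Ctsd, and with positive control scaling Mmp12 fell to 1.08 in eGFP-NP against MPLA and to 0.039 in eGFP-NP against IL4. With 1 library left out, Mmp12 ran from -1.38 to -0.21 in MPLA against IL4, 0.66 to 1.80 in IRF5-NP against IL4, -0.39 to 1.77 in eGFP-NP against IL4, -0.23 to 1.48 in IRF5-NP against eGFP-NP, 1.81 to 2.69 in IRF5-NP against MPLA and 0.64 to 2.43 in eGFP-NP against MPLA. Ctsd ran, in the same order, from -0.24 to 0.17, 0.73 to 1.50, -0.31 to 0.80, 0.21 to 1.44, 0.87 to 1.61 and -0.32 to 0.97. The log2 ratio ran from -0.99 to 1.66 in MPLA minus IL4 and -0.33 to 2.32 in IRF5-NP minus IL4, both turning without IL4 2. It ran from 0.17 (without IL4 2) to 2.82 (without IL4 3) in eGFP-NP minus IL4, -0.71 to -0.081 (without IRF5-NP 4) in IRF5-NP minus eGFP-NP, 0.45 to 1.08 (without IRF5-NP 4) in IRF5-NP minus MPLA and 0.96 to 1.26 in eGFP-NP minus MPLA. Of the 36 protease, inhibitor and lysosome genes, MPLA against IL4 called 6, but 10 with housekeeping scaling (168 of 754 over all genes), 13 with DESeq2 (291 of 730) and 1 with pairs merged (20 of 754). IRF5-NP and eGFP-NP against IL4 called 0, but 1 each with DESeq2 (19 and 56 of 729 over all genes). IRF5-NP against MPLA called 8, but 24 with DESeq2 (388 of 752), 0 with total count scaling (52 of 754) and 0 with pairs merged (0 of 754). eGFP-NP against MPLA called 3, but 7 with DESeq2 (229 of 743) and 0 with pairs merged (0 of 754). Over all genes the calls ran from 20 to 295 in MPLA against IL4 (199 as reported), 0 to 566 in IRF5-NP against MPLA (184), 0 to 428 in eGFP-NP against MPLA (148), and up to 19, 56 and 6 in the comparisons with none. Positive control scaling moved the median of all genes by -1.05 in eGFP-NP against MPLA (17 higher and 368 lower calls, against 54 and 94 as reported) and by -0.57 in IRF5-NP against MPLA (20 and 167, against 87 and 97), and housekeeping scaling by -0.28 in MPLA against IL4 (45 and 123, against 92 and 107). Every member count was above its library's background, and the part of depth in the differences was not tested.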

Other observations

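Other genes set IL4 2 apart from IL4 1, 3 and 4 in the direction of Mmp12. They were chosen by the size of their gap after the values had been seen. Chil3, a chitinase-like protein induced by interleukin-4 in macrophages, gave counts of 1258, 13, 2821 and 756 in IL4 1 to 4. Its log2 CPM in IL4 2 differed by -5.42 from the nearest IL4 library, after Mmp12 the largest gap downward. Rnase2a (-5.36), Itgax, the integrin CD11c (-5.12), Chil4 (-4.95) and Fabp4, a fatty acid-binding protein (-3.47), were also lower in IL4 2. In the other direction, C4a, a complement component, was 6.17 above the nearest IL4 library, Fcgr4, an Fc receptor, 3.86, and Isg15, an interferon-induced gene, 3.63.

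The genes running most opposite to Mmp12 over the 14 libraries were Cxcl9 (r = -0.941), C4a (r = -0.926) and F11r (r = -0.909). Without IL4 2 they stood at -0.769, -0.707 and -0.769. The gene most opposite to Ctsd was Nr4a1, an early response nuclear receptor, at -0.943, or -0.920 without IL4 2. When IL4 2 was left out, the genes most like Mmp12 were Lipa, the lysosomal acid lipase (0.986), Itgb2, an integrin subunit (0.981), and Trem2, a lipid-sensing receptor (0.980). These are descriptions across libraries that include near-duplicates.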
